A study of Mus musculus with 6 samples.

Results

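The 10 genes described here encode the receptors of the interleukin 6 family of cytokines that signal through gp130, and the 4 Janus kinases (JAKs) of the mouse. The receptors were Il6st, which encodes gp130 itself, with Il6ra, Cntfr, Il11ra1, Lifr and Osmr, and the kinases were Jak1, Jak2, Jak3 and Tyk2. A genomic region was taken as belonging to a gene when it overlapped the RefSeq bounds of that gene extended by 20000 bp on each side, which gave 121 of the 193148 regions measured and at least 5 for every gene. No region fell to more than 1 of the 10 genes. For 84 of the 121 the nearest protein-coding gene was the gene itself, and for the other 37 it was a neighbour.

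Open chromatin was measured by ATAC-seq in EGFP-positive nuclei sorted from the ventral tegmental area (VTA) of mice, a midbrain area that contains dopaminergic neurons. Both groups received 2 viral vectors in the VTA, AAV-TH-Cre, named for tyrosine hydroxylase, and AAV-DIO-H2B-EGFP, a nuclear green fluorescent protein that depends on Cre. The knockdown group had the genotype Ogtflox+/Y and the control group Ogtflox-/Y, with 3 libraries each, and Ogt encodes the enzyme that attaches N-acetylglucosamine to proteins inside cells. The labels give neither age nor strain. Nothing in them ties a library to an animal of its own, so the p-values measure only the spread between these libraries.

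One label conflict stands before the results. The title of knockdown replicate 1 carries the genotype Ogtflox-/Y, whereas its genotype field carries Ogtflox+/Y, which is the field used here. When that library was counted as a control, edgeR called 0 of all regions at an adjusted p under 0.05 and 23047 at an unadjusted p under 0.05, and of the 121 regions 0 were called and 16 passed unadjusted. With the library left out, 15 of the 121 were called higher and 16 lower (12.5% and 9.15% of all regions), against 24 and 16 with it (15.4% and 12.7% of all regions).

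The libraries held 34384319 to 66853563 reads, of which 12698758 to 24440507 lay in the regions. Values are given as CPM, read counts in regions scaled by TMM to a common library size. On this scale 3 reads correspond to between 0.117 and 0.237 CPM. The sums over all regions of a gene, given further on, are scaled separately. Ogt held 7 regions, and its start site rose from 9.08 to 11.1 CPM in the controls to between 14.7 and 17.9 CPM in the knockdown libraries, which is no check of the floxed allele. Of 10 dopaminergic marker genes, 9 had a region within 1000 bp and Ddc had none, with summed levels of 282 to 485 CPM in control and 299 to 365 CPM in knockdown libraries. Most of each sum came from 1 region at Th, which read 178, 378 and 245 CPM in the controls and 238, 182 and 172 CPM in the knockdown libraries. Slc6a3, Drd2 and Pitx3 were higher in every knockdown library than in every control. Drd2 went from 10.9 to 16.3 CPM in the controls to between 19.3 and 22.8 CPM. Pitx3 went from 36.4 to 42.0 CPM to between 44.3 and 48.9 CPM, and Slc6a3 from 3.82 to 4.16 CPM to between 4.32 and 4.67 CPM. The other dopaminergic genes with a region overlapped between the groups. Astrocyte markers (6 of 7 genes with a region, none at Aqp4) summed to between 50.8 and 55.1 CPM in the controls and to 85.0, 53.3 and 84.7 CPM in knockdown replicates 1, 2 and 3. Of these genes Gfap and Gja1 were higher in every knockdown library than in every control. Slc1a3 was lower in every one, at 4.71 to 6.65 CPM against 7.41 to 7.97 CPM. Oligodendrocyte markers (6 of 6 genes) summed to between 54.5 and 60.2 CPM in the controls and to 75.6, 42.1 and 58.2 CPM in the knockdown replicates. Mog and Sox10 were higher in every knockdown library than in every control, while the other oligodendrocyte genes overlapped. Of 7 microglial genes only P2ry12 had a region, at 0.380 to 1.96 CPM. The sum for GABAergic neurons (2 of 3 genes with a region, none at Gad2) was 15.8 to 22.0 CPM in control and at least 25.7 CPM in knockdown libraries. The sum for neurons in general (5 of 5 genes) was 202 to 221 and 240 to 269 CPM. Both sums were higher in every knockdown library than in every control. So were 21.0% of all single regions and 46.6% of those at start sites. Of the general neuronal genes, Snap25 and Tubb3 were apart in this way, while Rbfox3, Syt1 and Stmn2 overlapped between the groups. Glutamatergic markers (1 of 2 genes, none at Slc17a7) overlapped, at up to 21.8 CPM in control and 11.9 to 22.6 CPM in knockdown libraries. Endothelial and mural markers (4 of 6 genes, none at Pecam1 or Tek) summed to 10.9 to 15.5 CPM in control and 6.41 to 11.9 CPM in knockdown libraries. Cldn5, Kdr and Rgs5 were lower in every knockdown library than in every control, as were 21.2% of all regions and 8.17% of those at start sites. Pdgfrb went the other way, from 0.835 to 1.42 CPM in the controls to 4.38, 1.35 and 3.92 CPM in knockdown replicates 1, 2 and 3. The part of these cell types in the results was not tested. In sorted bulk nuclei, fewer cells of a type and less open chromatin per nucleus cannot be told apart.

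Cytokines of this family bind a receptor that is specific to them and then bring gp130, alone or paired with the leukaemia inhibitory factor receptor or the oncostatin M receptor, into a signalling complex. These receptors have no kinase of their own. JAKs bound to their intracellular parts phosphorylate the receptor and the STAT transcription factors, which move to the nucleus. In the brain the pathway is known from the survival of neurons, through ciliary neurotrophic factor, and from the reactive response of astrocytes, through leukaemia inhibitory factor and oncostatin M.

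The start sites are shown first, since every one of the 10 genes has a region there. The 4 sequences that follow are RefSeq promoter windows of GRCm38.p6, the assembly also called mm10. Each runs from 250 bases before to 50 bases after the start site, 5′ to 3′ on the strand of the gene. They belong to 2 receptors with a large rise, to Jak1, and to Tyk2, the gene with the lowest start-site change of the 10. Under TMM scaling the Jak1 start site was higher and 7 of its other regions were lower. Capitals mark a motif found by searching both strands for TTCNNNGAA (the core of the element that STAT dimers bind), TGANTCA (AP-1), TGACGTCA (the cyclic AMP response element) and CACGTG (the E-box).
Il6ra (chr3:89913147-89913446, minus strand): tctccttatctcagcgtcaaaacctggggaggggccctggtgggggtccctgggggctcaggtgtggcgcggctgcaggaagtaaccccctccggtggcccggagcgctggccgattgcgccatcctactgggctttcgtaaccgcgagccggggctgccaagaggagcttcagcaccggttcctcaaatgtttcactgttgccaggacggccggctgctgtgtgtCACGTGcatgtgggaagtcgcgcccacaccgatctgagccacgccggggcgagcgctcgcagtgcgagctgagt
Osmr (chr15:6874264-6874563, minus strand): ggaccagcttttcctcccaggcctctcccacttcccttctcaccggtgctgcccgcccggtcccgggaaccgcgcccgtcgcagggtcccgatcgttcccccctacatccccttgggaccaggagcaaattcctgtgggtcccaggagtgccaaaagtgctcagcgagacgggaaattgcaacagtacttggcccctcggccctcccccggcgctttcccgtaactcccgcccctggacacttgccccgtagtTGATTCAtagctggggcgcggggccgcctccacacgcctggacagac
Jak1 (chr4:101265174-101265473, minus strand): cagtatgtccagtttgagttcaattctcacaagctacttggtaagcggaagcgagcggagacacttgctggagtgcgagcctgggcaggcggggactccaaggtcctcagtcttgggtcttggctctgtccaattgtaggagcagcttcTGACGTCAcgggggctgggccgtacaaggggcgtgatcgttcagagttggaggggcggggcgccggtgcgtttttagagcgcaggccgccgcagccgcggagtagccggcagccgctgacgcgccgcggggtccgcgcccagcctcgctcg
Tyk2 (chr9:21131226-21131525, minus strand): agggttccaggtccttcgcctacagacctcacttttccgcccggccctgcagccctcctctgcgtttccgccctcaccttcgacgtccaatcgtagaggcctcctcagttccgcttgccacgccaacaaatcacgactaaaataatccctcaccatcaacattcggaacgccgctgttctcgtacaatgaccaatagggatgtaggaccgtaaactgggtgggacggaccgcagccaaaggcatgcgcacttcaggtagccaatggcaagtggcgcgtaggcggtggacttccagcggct

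The capitals are an E-box starting 24 bases before the start site in Il6ra, an AP-1 motif starting 3 bases after it in Osmr and a cyclic AMP response element starting 101 bases before it in Jak1. Over all 32851 promoter windows of the RefSeq table these motifs occurred in 7.15%, 7.81% and 1.79%. The STAT core was in 8.30% of all windows and in 0 of the 17 windows of the 10 genes, and Tyk2 held none of the 4 motifs in the window shown. The windows used for the 10 genes were rich in G and C, at 54.3% to 81.3% with a median of 65.3%, against a median of 52.7% over all windows. A match is a description of letters and was not tested for binding.

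Start-site accessibility was higher in knockdown libraries at 7 of the 10 genes and lower at 0 (edgeR quasi-likelihood test, Benjamini-Hochberg adjusted p under 0.05 over the 191693 regions tested). A start-site region is one that overlaps the RefSeq promoter window of its gene. Among all 10834 such regions, 37.3% were called higher and 4.94% lower, together 42.2%, so most start sites called under TMM scaling were higher. The groups did not overlap, with knockdown above control, at 8 of the 10, against 46.6% of all start sites, and with knockdown below control at 0, against 8.17%. The count of 0 lower was also 0 at an unadjusted p under 0.05 and in DESeq2, which called 5 of the 10 higher (30.0% of all start sites).

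**Figure D1:**
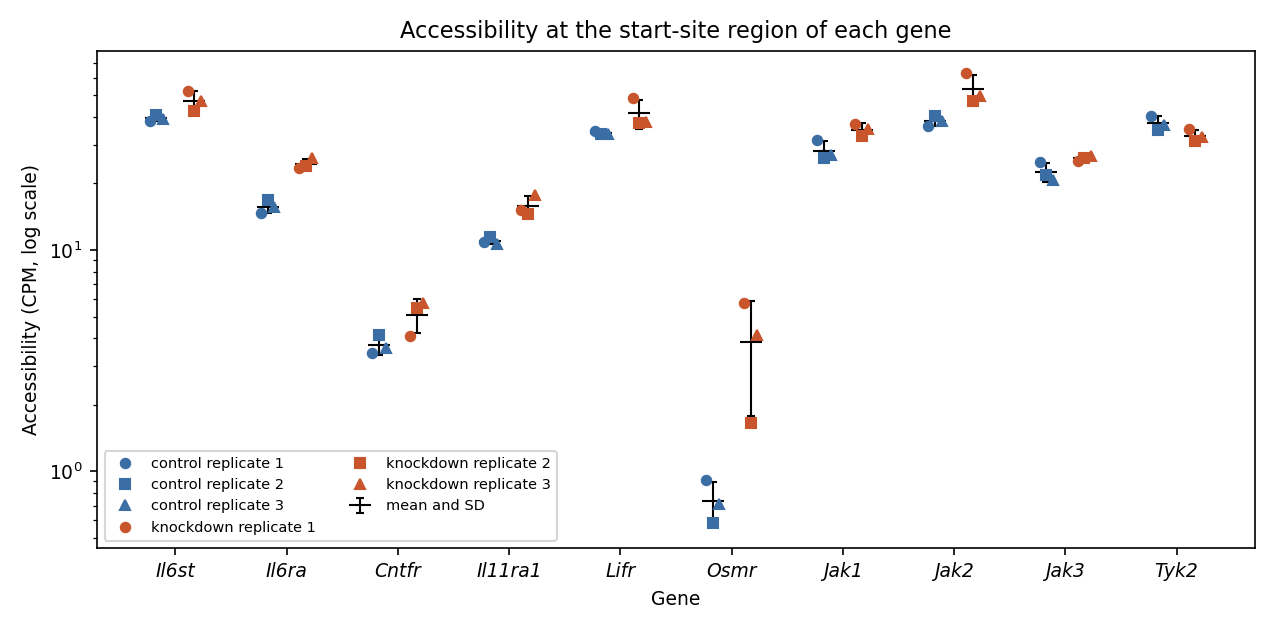
Accessibility (CPM, log scale) of the start-site region of each of the 10 genes, with 1 point per library and the mean and SD of each group of 3. Osmr has the lowest control level and the widest gap between groups, and Tyk2 is the only gene whose knockdown mean lies below its control mean.

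Il6st encodes gp130, the signalling chain shared by the whole family. Its start site (chr13:112463843-112464243) read 38.4, 40.7 and 39.0 CPM in control replicates 1, 2 and 3 and 52.3, 42.7 and 47.2 CPM in knockdown replicates 1, 2 and 3. All knockdown libraries lay above all controls, with knockdown replicate 2 close to the highest control. It rose by 0.27 on the log2 scale (SE 0.098, edgeR adjusted p = 0.048). DESeq2 did not call it (adjusted p = 0.078), nor did edgeR without knockdown replicate 1 (adjusted p = 0.15). The call was also lost on leaving out any 1 control or knockdown replicate 3, with adjusted p between 0.090 and 0.13 in edgeR. The other 4 Il6st regions were not called, and held mean levels of 0.823 to 5.64 CPM, with 1 of them lower at an unadjusted p.

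Il6ra encodes the receptor that binds interleukin 6. Its start site (chr3:89912791-89913191, of which 45 bases lie in the window printed) read 14.7, 16.8 and 15.7 CPM in the controls and 23.5, 24.1 and 26.1 CPM in the knockdown libraries. The 3 knockdown libraries lay close together and well above the controls, and knockdown replicate 2 was not the lowest of them. The rise was 1.56-fold, or 0.64 on the log2 scale (SE 0.11, edgeR adjusted p = 4.7e-04). This was the only start site of the 10 still called (1 of 10, against 10.5% of all start sites) when knockdown replicate 2 alone was set against the controls (log2 fold change 0.59, edgeR adjusted p = 0.0088).

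Cntfr encodes the receptor of ciliary neurotrophic factor, held on the membrane by a lipid anchor. Its start site (chr4:41696139-41696539) read 3.42, 4.14 and 3.60 CPM in the controls and 4.08, 5.46 and 5.78 CPM in the knockdown libraries. The groups overlapped through knockdown replicate 1, and the log2 fold change of 0.45 (SE 0.20) was not called (edgeR adjusted p = 0.10), while it passed just under the threshold without that replicate (0.60, adjusted p = 0.050). A region within the gene beside it (chr4:41696888-41697288, 2.93 ± 0.048 CPM in controls and 3.09 ± 0.72 CPM in knockdown; SD, n = 3) and one just outside it (chr4:41697445-41697845, 6.28 ± 0.35 and 6.18 ± 1.09 CPM) were not called.

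Il11ra1 encodes the receptor that binds interleukin 11. Its start site (chr4:41760278-41760678) read 10.9, 11.4 and 10.7 CPM in the controls and 15.2, 14.6 and 17.7 CPM in the knockdown libraries. The groups were apart, and the start site rose by 0.52 on the log2 scale (SE 0.13, edgeR adjusted p = 0.0055). The RefSeq table holds close copies of this gene on the same chromosome, among them Il11ra2, and no source used here says how reads shared by copies were placed, so its values are uncertain.

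Lifr and Osmr encode the receptors of leukaemia inhibitory factor and oncostatin M, which pair with gp130 and carry the signal into the cell with it. The Lifr start site (chr15:7129280-7129680) read 34.4, 33.4 and 33.5 CPM in the controls and 48.6, 37.7 and 38.1 CPM in the knockdown libraries. Knockdown replicate 1 stood well above the other two, which were only a little above the controls. The start site rose by 0.30 on the log2 scale (SE 0.11, edgeR adjusted p = 0.044), a call that did not hold without knockdown replicate 1 (0.18, adjusted p = 0.20), without any 1 control (adjusted p 0.079 to 0.14) and in DESeq2 (adjusted p = 0.076).

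The Osmr start site (chr15:6874153-6874553) read 0.911, 0.585 and 0.709 CPM in the controls and 5.74, 1.66 and 4.12 CPM in the knockdown libraries. It was the least accessible start site of the 10, with 12 to 76 reads per library, and the groups did not overlap. The rise of 2.43 on the log2 scale, or 5.39-fold (SE 0.37 on the log2 scale, edgeR adjusted p = 2.0e-04), was the largest among the 121 regions. The order of the knockdown libraries was that of the summed astrocyte and of the summed oligodendrocyte markers, and the part of either cell type in the rise was not tested. With knockdown replicate 2 alone the log2 fold change was 1.20. Without knockdown replicate 1 it was 2.05 (edgeR adjusted p = 6.6e-04).

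Jak1 and Jak2 encode the kinases bound most widely by gp130 complexes and by the receptors of many other cytokines. The Jak1 start site (chr4:101265091-101265491) read 31.5, 26.2 and 26.8 CPM in the controls and 37.2, 32.6 and 35.4 CPM in the knockdown libraries. The gap between the highest control and the lowest knockdown library was narrow. It rose by 0.32 on the log2 scale (SE 0.10, edgeR adjusted p = 0.026), a call lost without control replicates 2 or 3 or knockdown replicates 1 or 3 (adjusted p 0.057 to 0.15).

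The Jak2 start site (chr19:29251483-29251883) read 36.3, 40.2 and 38.3 CPM in the controls and 62.9, 47.1 and 49.9 CPM in the knockdown libraries. All knockdown libraries were above all controls, replicate 1 the most. It rose by 0.48 on the log2 scale (SE 0.11, edgeR adjusted p = 0.0037), and by 0.35 without knockdown replicate 1 (adjusted p = 0.015). With knockdown replicate 2 alone the log2 fold change was 0.28.

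Jak3, which encodes the JAK of the common gamma chain receptors of lymphocytes, and Tyk2, which encodes a JAK of interferon and interleukin 12 receptors, were not called at their start sites. The Jak3 start site (chr8:71676406-71676806) read 25.1, 21.9 and 20.8 CPM in the controls and 25.1, 26.0 and 26.8 CPM in the knockdown libraries, which was 0.21 on the log2 scale (SE 0.10, edgeR adjusted p = 0.14). The Tyk2 start site (chr9:21131168-21131568) read 40.5, 35.0 and 36.8 CPM in the controls and 35.1, 31.1 and 32.4 CPM in the knockdown libraries, which was -0.18 on the log2 scale (SE 0.099, edgeR adjusted p = 0.17). For Jak3 the lowest knockdown library lay just above the highest control, and for Tyk2 the groups overlapped through knockdown replicate 1.

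How many start sites were called higher depended on how the libraries were scaled. TMM scaling assumes that most regions do not change, whereas scaling to all reads of a library moved the median of all regions to a log2 fold change of -0.27 and scaling to the reads in regions moved it to -0.12. For all start sites the median was 0.24 under TMM, -0.027 under library totals, 0.13 under reads in regions and 0.012 under curves fitted over the mean level. Under library totals Il6ra and Osmr were called higher (2 of 10, against 5.44% of all start sites), and Tyk2 was called lower with a log2 fold change of -0.45 (edgeR adjusted p = 0.0081). Under reads in regions 4 of 10 were called higher (25.9% of all start sites), and under curves fitted over the mean level 3 of 10 (13.7%). Tyk2 was called lower under both, and with the curves its log2 fold change was -0.46 (edgeR adjusted p = 3.6e-04). The Jak2 start site stayed called under reads in regions (log2 fold change 0.36, edgeR adjusted p = 0.0068). It was not called under library totals (0.21, adjusted p = 0.20) or with the curves (0.15, adjusted p = 0.19), also in edgeR.

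**Figure D2:**
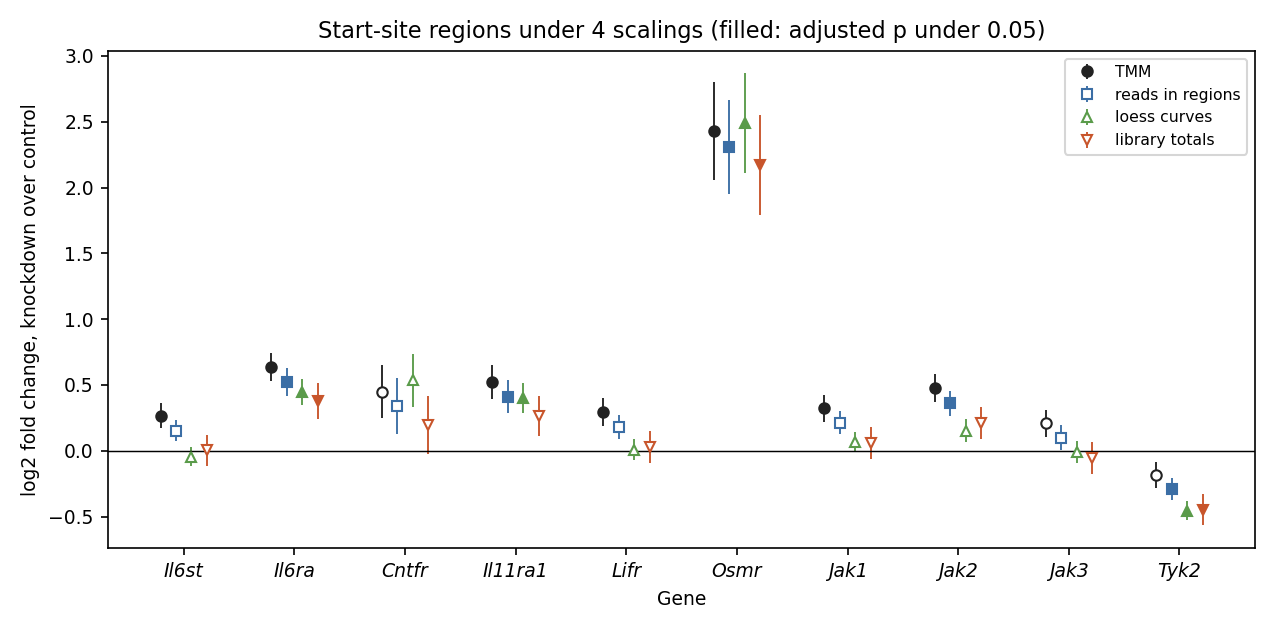
Start-site log2 fold change (knockdown over control, bars are SE) of each gene under 4 ways of scaling the libraries, with filled symbols where the edgeR adjusted p was under 0.05. Il6ra and Osmr are filled under all 4, while Il6st, Lifr and Jak1 are filled under TMM alone.

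Over all 121 regions, 24 were called higher and 16 lower, together 33.1%, against 28.1% of all regions tested (15.4% higher and 12.7% lower). The median log2 fold change was 0.0059, and that of all regions tested was -0.0065. With libraries scaled to their totals the split was 8 higher and 32 lower (31.5% of all regions called), with reads in regions 15 and 24 (29.2%), and with loess curves 16 and 17 (25.5%). DESeq2 called 15 higher and 9 lower (18.5% of all regions), and edgeR with knockdown replicate 2 alone called 2 and 9 (11.5%). The groups did not overlap at 25 regions upward and 22 downward, against 21.0% and 21.2% of all regions. Away from their own start sites, 17 of 111 regions were higher and 16 lower, against 14.1% and 13.1% of all regions that are not at start sites (27.2% called). Of the 60 of them inside a gene of the 10, 8 were higher and 10 lower, against 13.3% and 13.0% of all regions within genes (26.3% called).

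**Figure D3:**
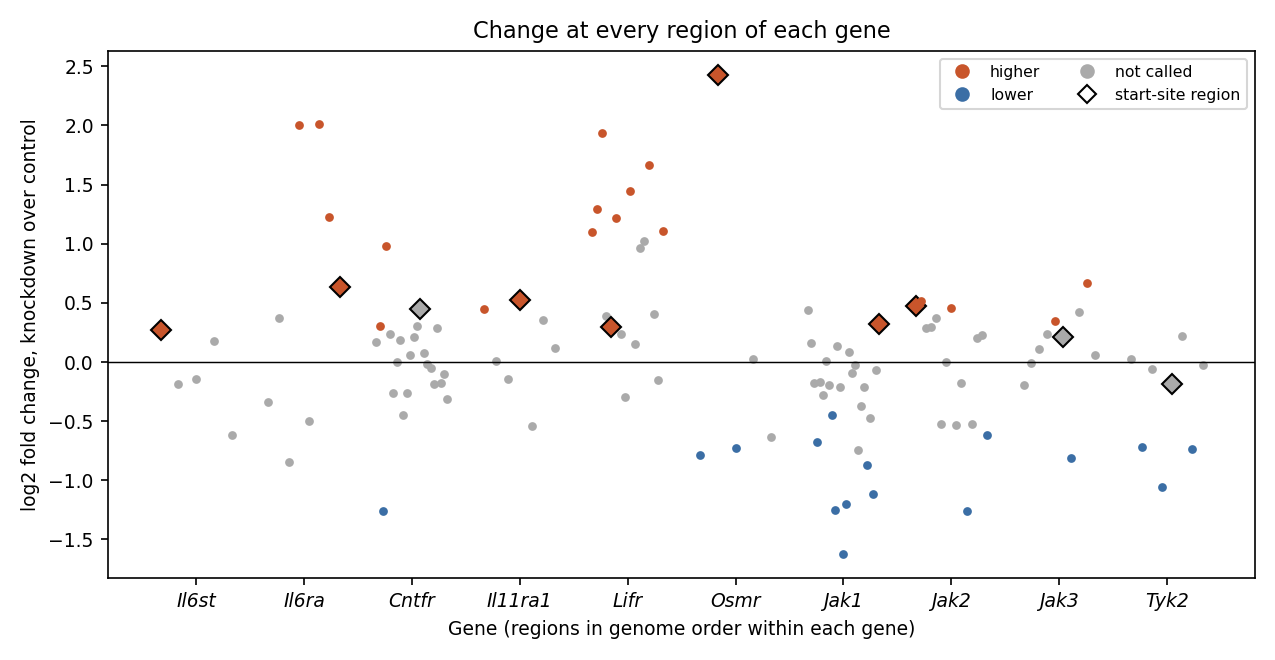
The log2 fold change (knockdown over control) of each of the 121 regions by gene, in genome order within a gene, coloured by call, with diamonds at start sites. Lifr has 8 higher regions and none lower, and Jak1 has 7 lower regions and 1 higher, its start site.

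The receptor genes held 18 higher and 3 lower regions of 63, and the JAK genes 6 higher and 13 lower of 58. Of all regions 15.4% were higher and 12.7% lower, and the counts of each gene that follow are to be read against these shares. The medians of the 2 sets were 0.18 and -0.080 on the log2 scale. The difference between the 2 sets of genes was not tested. With libraries scaled to their totals the receptors had 8 higher and 12 lower regions and the JAK genes 0 higher and 20 lower (6.85% and 24.6% of all regions). Without knockdown replicate 1 the counts were 11 and 4 for the receptors and 4 and 12 for the JAK genes (12.5% and 9.15% of all regions).

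Il6ra, with 8 regions, had 4 higher and 0 lower in edgeR, with 1 lower at an unadjusted p and 0 lower in DESeq2. Scaled to library totals 2 of them were lower, and to reads in regions 1. Besides the start site, a region inside the gene 22767 bp downstream of the start (chr3:89890229-89890629) read 0.683, 0.195 and 0.520 CPM in the controls and 2.49, 0.950 and 1.79 CPM in the knockdown libraries. It was sparsely covered, and all 3 knockdown libraries were above the controls. This rise, of 2.02 on the log2 scale (SE 0.44, edgeR adjusted p = 0.0027), was the largest of the gene. Another region inside the gene rose by 1.23 on the log2 scale, and one beyond its end, nearest to She, by 2.00.

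Lifr had 8 of 16 regions higher and 0 lower (also 0 lower at an unadjusted p and in DESeq2, where 4 were higher), with a median log2 fold change of 0.99. Its start site was the most accessible, and the other 15 regions had mean levels of 0.837 to 3.45 CPM. The largest change (chr15:7118828-7119228, inside the gene bounds and upstream of the start site used) was from 1.67, 1.60 and 1.04 CPM in the controls to 9.89, 1.66 and 4.85 CPM in the knockdown libraries. Knockdown replicate 2 lay within the range of the controls, so the groups overlapped at a change of 1.94 on the log2 scale (SE 0.41, edgeR adjusted p = 0.0024).

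The library order recurred along Lifr. Of the 3 knockdown libraries, replicate 2 had the lowest value at 6 of the 8 regions called higher, and replicate 1 the highest at 7. Over the 10 genes replicate 2 had the lowest value at 16 of 24, 66.7%, against 49.4% of all regions called higher. Without knockdown replicate 1, 3 Lifr regions were called higher, and with replicate 2 alone 1 was. The number was 4 without control replicate 2 and without control replicate 3, and 5 without control replicate 1. Library totals gave 3, and reads in regions and loess curves 5 each. The summed astrocyte and the summed oligodendrocyte markers were lowest in replicate 2 among the knockdown libraries too. Of single genes, Slc1a3 was highest in replicate 2 (5.89, 6.65 and 4.71 CPM in replicates 1, 2 and 3). Mog was lowest in replicate 3 (5.97, 0.950 and 0.863 CPM). The part of these cell types in the Lifr counts was not tested.

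Osmr had 5 regions, and 2 of them fell while the start site rose. A region inside the gene (chr15:6840173-6840573) went from 2.20, 2.97 and 2.89 CPM to 1.81, 1.74 and 1.20 CPM, which was -0.79 on the log2 scale (SE 0.26, edgeR adjusted p = 0.030). The most accessible region of the window, upstream of the gene (chr15:6882222-6882622), went from 3.87, 4.33 and 3.83 CPM to 3.78, 1.82 and 1.73 CPM, or -0.73 on the log2 scale (SE 0.27, edgeR adjusted p = 0.048). In both regions the knockdown libraries lay below the controls, in the upstream one by a narrow margin for knockdown replicate 1, and neither was called in DESeq2, under loess curves, or without control replicates 2 or 3 or knockdown replicate 3. Without knockdown replicate 1 the upstream region was at -1.17 (edgeR adjusted p = 0.0035), and its call was also lost without control replicate 1 (adjusted p = 0.098) or knockdown replicate 2 (adjusted p = 0.11).

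Cntfr had the second largest set of regions, 22, of which 2 were higher and 1 lower. All 3 were in the flank beyond the gene end, and their nearest gene was Enho. The region chr4:41645512-41645912 fell from 8.43, 7.69 and 7.95 CPM to 3.47, 3.40 and 3.12 CPM, with little spread within either group. Its log2 fold change was -1.26 (SE 0.18, edgeR adjusted p = 1.0e-04), and it was called in all settings except grouping by title. The most accessible region (chr4:41640152-41640552) was higher by 0.31 (adjusted p = 0.045), and chr4:41648121-41648521 by 0.98 (adjusted p = 0.031) with overlapping groups. Both of those calls were lost in DESeq2 and without control replicates 2 or 3 or knockdown replicates 1 or 3.

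Il11ra1 had 7 regions, 2 of them higher and 0 lower in edgeR, with 1 lower at an unadjusted p and 0 in DESeq2. In edgeR the counts were 0 higher and 2 lower under library totals, 1 and 2 under reads in regions, 2 and 2 under loess curves, and 2 and 1 without knockdown replicate 1. The most accessible region, nearest to Galt (chr4:41755189-41756328), read 61.1, 52.3 and 50.7 CPM in the controls and 47.4, 50.7 and 50.5 CPM in the knockdown libraries, just below them. It was not called at -0.14 on the log2 scale (edgeR adjusted p = 0.29), but was called lower at -0.40 under library totals (adjusted p = 0.014), -0.25 under reads in regions (0.024) and -0.46 under loess curves (4.7e-04).

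Under TMM scaling Jak1 showed the opposite direction inside the gene and at its start. Of its 25 regions, 7 were lower and 1, the start site, was higher. In edgeR the start site was not called under library totals (log2 fold change 0.060, adjusted p = 0.74), reads in regions (0.21, 0.069) or loess curves (0.067, 0.55). Jak1 regions called lower then numbered 9, 8 and 5. Inside the gene but away from start sites, 13.0% of all regions were lower, and Jak1 had 6 of its lower regions there. The region of largest change (chr4:101187985-101188385, 77038 bp downstream of the start site) read 4.18, 2.93 and 3.22 CPM in the controls and 0.906, 1.03 and 1.33 CPM in the knockdown libraries. The groups were far apart for so low a level, and the region fell by 1.62 on the log2 scale (SE 0.27, edgeR adjusted p = 3.8e-04). It stayed called with knockdown replicate 2 alone (-1.72, adjusted p = 0.0064).

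The other 6 lower Jak1 regions had log2 fold changes from -1.25 to -0.45, at control means of 1.67 to 11.1 CPM. The groups did not overlap, with knockdown below control, at 7 of the 25 Jak1 regions, all of them called, against 21.2% of all regions. A region 650 bp inside the gene (chr4:101264373-101264773) was not called, at 9.85 ± 0.43 CPM in controls and 9.43 ± 0.47 CPM in knockdown (SD, n = 3). The number of lower Jak1 regions was 3 in DESeq2, 4 without control replicate 1 and without control replicate 3, and 5 without control replicate 2 and without knockdown replicate 1.

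**Figure D4:**
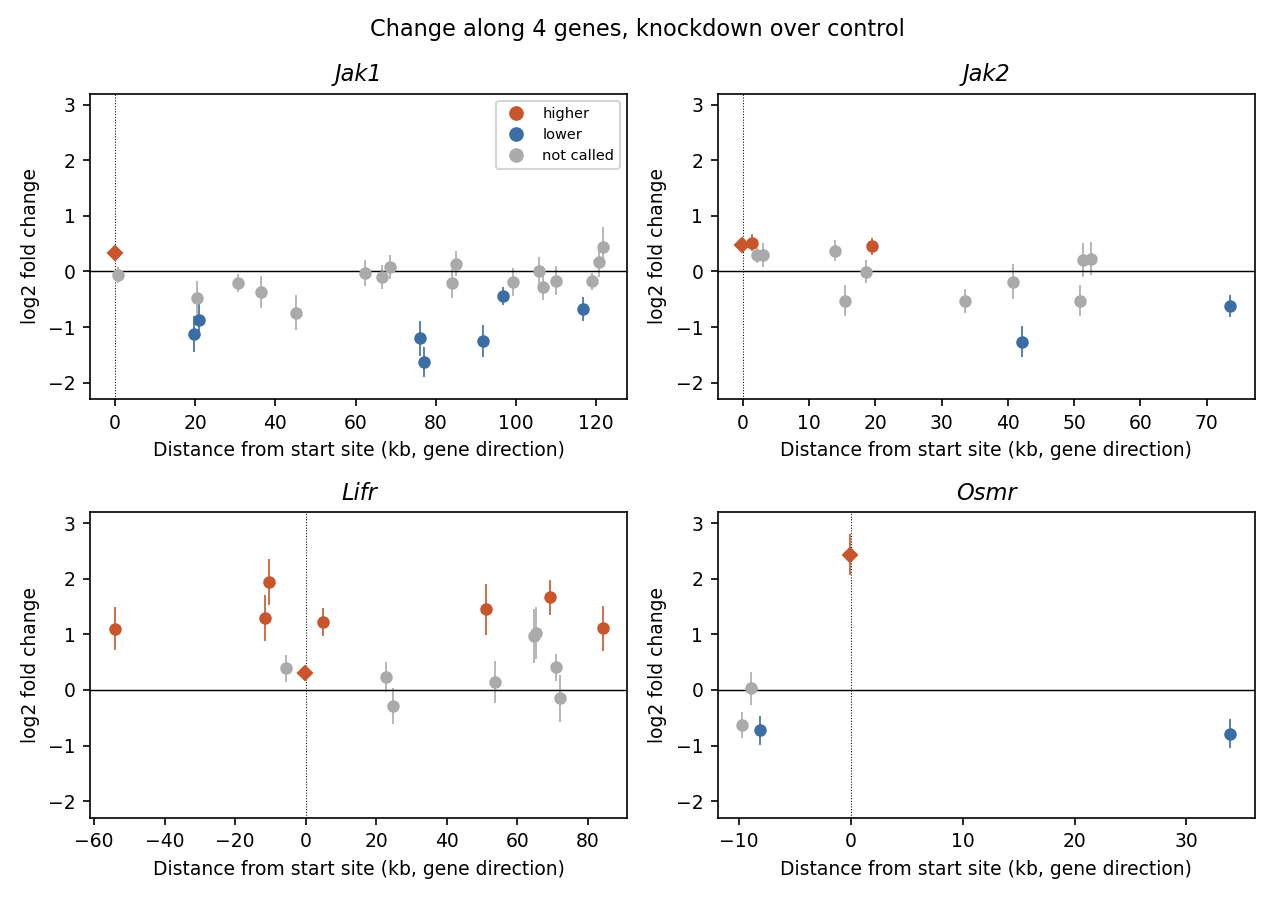
The log2 fold change of each region (knockdown over control) against its distance from the start site (kb, in the direction of the gene) for Jak1, Jak2, Lifr and Osmr, coloured by call. Lower regions of Jak1 lie away from its start site, higher regions of Lifr lie on both sides of it, and Osmr is high at its start alone.

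Jak2 had 3 of 15 regions higher and 2 lower. The start site and 2 regions inside the gene were higher, the larger of these 1331 bp downstream (chr19:29252934-29253334), which went from 6.60, 6.28 and 5.72 CPM to 8.31, 8.55 and 9.69 CPM (log2 fold change 0.52, edgeR adjusted p = 0.021). In the other direction chr19:29293764-29294164, further inside the gene, went from 2.73, 2.26 and 2.32 CPM to 1.21, 0.950 and 0.863 CPM (log2 fold change -1.26, edgeR adjusted p = 0.0029). The groups were apart at both. Scaled to library totals Jak2 had 0 higher and 5 lower regions, and 1 higher was left without control replicates 2 or 3 or knockdown replicate 3. Just outside the window, 21085 bp from the gene and nearest to Rln1, accessibility rose from 8.85 to 21.9 CPM on average, a log2 fold change of 1.29.

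Jak3 had 2 of 10 regions higher and 1 lower, and 7 of the 10 lay outside the gene. The region inside the gene (chr8:71685596-71686193) fell from 9.19, 8.66 and 8.99 CPM to 4.76, 4.51 and 5.91 CPM, or by 0.81 on the log2 scale (SE 0.17, edgeR adjusted p = 0.0019). It stayed called with knockdown replicate 2 alone (edgeR adjusted p = 0.0049). The 2 higher regions were nearest to other genes, Unc13a (chr8:71671526-71671926, log2 fold change 0.35) and Fcho1 (chr8:71707908-71708308, 0.67), and neither was called under library totals or without control replicates 2 or 3.

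Tyk2 had 3 of 8 regions lower and 0 higher (also 0 higher at an unadjusted p and in DESeq2). The region inside the gene (chr9:21114190-21114590) went from 1.67, 1.60 and 1.94 CPM to 1.51, 0.475 and 0.531 CPM, or -1.05 on the log2 scale (SE 0.37, edgeR adjusted p = 0.039), with knockdown replicate 1 just below the controls. It was not called in DESeq2 (adjusted p = 0.11), nor in edgeR without any 1 control (0.077 to 0.11), knockdown replicate 2 (0.11) or replicate 3 (0.18), and it was at -1.76 without knockdown replicate 1. The other 2 lower regions lay in the flanks, nearest to Raver1 and Cdc37, and fell by 0.72 and 0.74 on the log2 scale. The most accessible region, nearest to Raver1 (chr9:21091842-21092242), was not called at a log2 fold change of 0.028 (edgeR adjusted p = 0.87), but under loess curves it was called lower at -0.28 (adjusted p = 0.011). Tyk2 then had 6 lower regions, against 4 under library totals and under reads in regions, and 1 without control replicate 2 or without control replicate 3.

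The edge of the window also set which values were counted. The Il6st region nearest outside it, 20399 bp from the gene, fell from 1.39 to 0.384 CPM on average (log2 fold change -1.79), and would have been the largest fall among the regions of the 10 genes.

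To give each gene 1 value per library, reads were summed over its regions and fitted across 18416 protein-coding genes. The libraries were scaled at the level of genes, so the CPM of these sums cannot be set beside the CPM of regions. The Il6st sum, at 33.8 to 36.6 CPM in the controls, lay below its start site alone, at 38.4 to 40.7 CPM. Of all genes, 37.5% were called (17.9% higher and 19.6% lower). Among the 10, Il6ra and Lifr were higher and Jak1 and Tyk2 lower, while the other 6 were not called. The groups did not overlap for those 4 of the 10 and overlapped for the other 6, while they did not overlap for 47.9% of all genes. Summed reads weigh the most accessible regions most, including those nearest to other genes.

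Il6ra summed to 20.6, 20.6 and 19.3 CPM in the controls and 27.1, 25.0 and 27.2 CPM in the knockdown libraries, which was 0.39 on the log2 scale (SE 0.084, edgeR adjusted p = 0.0020). Lifr summed to 35.7, 35.4 and 37.2 CPM and to 59.1, 38.4 and 42.1 CPM, which was 0.37 on the log2 scale (SE 0.11, edgeR adjusted p = 0.016). The groups were apart for both, but for Lifr the call was lost without knockdown replicate 1 (0.16, adjusted p = 0.11) and in DESeq2 (adjusted p = 0.14).

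Jak1 summed to 84.0, 83.2 and 85.8 CPM in the controls and 72.1, 68.1 and 70.2 CPM in the knockdown libraries, which was -0.27 on the log2 scale (SE 0.052, edgeR adjusted p = 0.0012). Tyk2 summed to 93.3, 83.9 and 87.1 CPM and to 78.4, 70.7 and 74.8 CPM, which was -0.24 on the log2 scale (SE 0.059, edgeR adjusted p = 0.0054). Every knockdown library lay below every control in both. Scaling at the level of genes sets the median gene near 0, and with the scaling of the regions the median gene moved to 0.14. Jak1 was then at -0.13 (adjusted p = 0.19) and Tyk2 at -0.099 (adjusted p = 0.34), neither called, and Jak2 was called higher at 0.25 (adjusted p = 0.016), all in edgeR.

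Of the 6 genes not called, the log2 fold changes were 0.0027 for Il6st, 0.0038 for Jak3, -0.053 for Cntfr, -0.090 for Il11ra1, 0.10 for Jak2 and -0.22 for Osmr. The Osmr sum fell by 0.48 without knockdown replicate 1 (edgeR adjusted p = 0.049), while over the smaller window of 5000 bp it was 0.50 and not called (adjusted p = 0.12).

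Per kb of regions, the control means ran from 27.5 CPM for Tyk2 through 24.0 for Il11ra1, 21.5 for Jak3, 17.7 for Il6st, 14.7 for Cntfr, 11.4 for Jak2, 8.11 for Jak1, 6.28 for Il6ra and 5.44 for Lifr to 3.98 CPM for Osmr. The ranges of the 3 controls did not overlap between any pair of neighbours in this order. This order compares levels of open chromatin and not of RNA, in the CPM of the gene sums. In knockdown libraries Tyk2 (22.0 to 24.4 CPM per kb), Il11ra1 (21.0 to 24.0) and Jak3 (19.8 to 22.8) overlapped. Lifr (5.78 to 8.90) overlapped both Jak1 (6.55 to 6.94) and Il6ra (7.79 to 8.49) there, and the knockdown means of Il6ra (8.24) and of Lifr lay above that of Jak1 (6.75).

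**Figure D5:**
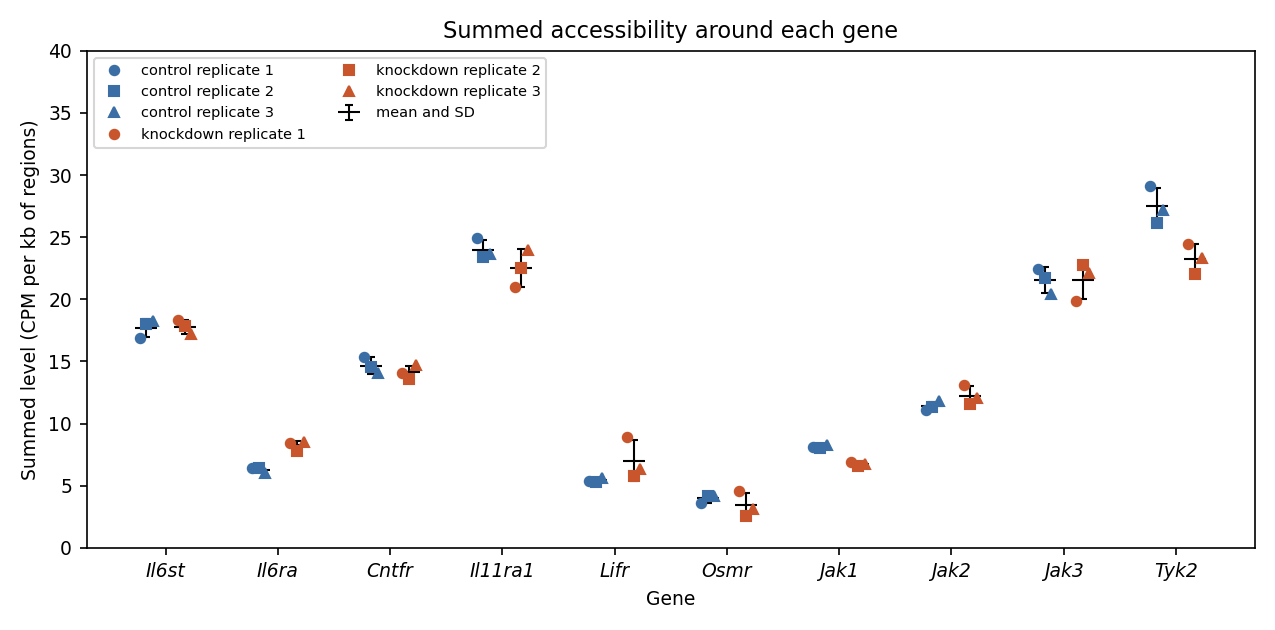
Summed accessibility around each gene, in the CPM of the gene sums per kb of its regions. There is 1 point per library, with the mean and SD of each group of 3. Knockdown libraries lie above the controls for Il6ra and Lifr and below them for Jak1 and Tyk2.

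The rest of the pathway was counted the same way, from lists of genes around which regions were taken with the same window. Each count is to be read against all regions, of which 15.4% were higher and 12.7% lower. For the ligands of the family, 19 of 59 regions were higher (32.2%) and 7 lower (11.9%), with a median log2 fold change of 0.22. The largest change was at Ctf1, which encodes cardiotrophin 1, where a region inside the gene lost accessibility, from 12.2 ± 1.05 CPM to 2.62 ± 0.89 CPM (SD over 3 libraries), or -2.23 on the log2 scale (edgeR adjusted p = 1.7e-06).

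Among 22 other class I receptors, 20 of 136 regions were higher (14.7%) and 25 lower (18.4%), against 15.4% and 12.7% of all regions, with a median of -0.046. The largest were regions at Il21r (log2 fold change 3.16) and Csf2rb (2.35), encoding the receptor of interleukin 21 and the common beta chain. The knockdown libraries spread widely at both (SD over 3 libraries). Il21r went from 0.490 ± 0.15 to 4.60 ± 2.42 CPM, and Csf2rb from 2.01 ± 0.18 to 10.1 ± 6.46 CPM. Among 10 class II receptors, of interferons and the interleukin 10 family, 10 of 47 regions were higher (21.3%) and 6 lower (12.8%), with Il20ra (2.36) and Ifnar2 (1.88) the largest.

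Of the 65 regions of the 7 STAT genes, 12 were higher (18.5%) and 8 lower (12.3%), against 15.4% and 12.7% of all regions, with a median log2 fold change of -0.013. Near Stat5b a region went from 7.13 ± 0.43 CPM in controls to 2.24 ± 0.55 CPM in knockdown (-1.67 on the log2 scale), the largest change of the list. The inhibitors and phosphatases, which end JAK signalling, had 53 of 199 regions higher (26.6%) and 16 lower (8.04%), with a median of 0.15. Their largest changes were near Socs5 (-1.92) and Socs7 (1.67), which encode suppressors of cytokine signalling. The Socs5 region went from 2.30 ± 0.65 to 0.582 ± 0.24 CPM (SD over 3 libraries). The Socs7 region went from 1.97 ± 0.12 to 6.33 ± 4.68 CPM, with a wide spread between knockdown libraries.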

How the data were processed

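The ATAC-seq libraries came from a kit for general DNA libraries, per the labels' protocols, which mention no transposition. Per the submitters' processing notes, the build was mm10 and the tools, with no role or order, included BWA, MACS2, Picard, SAMtools 1.9, FastQC and Trimmomatic. The deposited tables give, per library, a read count for each of 193148 regions, 94.6% of them 401 bp wide. They also give, per the file headers, an RPKM and a score for each region, as the authors deposited them. RPKM served here only to recover library totals, and the score was not used. How the authors chose the regions, handled duplicates and placed reads with several matches is not given in the sources used here.

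Raw counts were fitted in R 4.3.3 with edgeR 4.0.16 (quasi-likelihood test, two-sided, TMM scaling, its default filter on low counts, which left 191693 regions), adjusting by Benjamini-Hochberg over all regions tested. All 121 member regions passed the filter. SE is the log2 fold change divided by the square root of the F statistic. Reads summed within 20000 bp of each gene were fitted likewise over 18416 genes. DESeq2 1.42.0 was an alternative, limma 3.58.1 supplied the loess curves, and other alternatives were library scaling, no filter, leaving out each library, grouping by title, knockdown replicate 2 alone, a 5000 bp window and only regions nearest to the gene. Scaling the gene sums as the regions was chosen after seeing the data. The members and lists were chosen with earlier results of these data known.

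The text names, for each gene, its start-site regions and those within 1000 bp of either gene bound, the most accessible region, and the called region of largest change in each direction, and names others where a count is small. For other lists it names the 2 called regions of largest change, except that some results are not reported here. Gene bounds, promoter windows and sequences are from RefSeq (GRCm38.p6), with all 10 genes matched. No exon annotation was used, so positions inside a gene are not split into exon, intron or UTR. No 2 libraries agreed within counting error (chi-square per degree of freedom of 1.85 to 2.98 within groups). On simulated data of 193148 regions the fit recovered 41 of 100 regions changed 2-fold and 95 of 100 changed 4-fold. All other regions were unchanged there, and every region had the same set spread between libraries. In the real data 28.1% of all regions were called, so the recovered shares do not carry over to them. Single regions with small changes can still be missed at this depth.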

Additional observations from a re-analysis of the deposited data

How the results depend on the processing

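Against 24 regions higher and 16 lower, DESeq2 called 15 and 9, library totals 8 and 32, reads in regions 15 higher, knockdown replicate 2 alone 2 and 9, and grouping by title 0 and 0 (edgeR, with 3 higher and 13 lower at an unadjusted p under 0.05; DESeq2 was not run on that grouping). Leaving out 1 library gave 10 to 27 higher, lowest without control replicate 2, and 9 to 16 lower, lowest without control replicate 3. Start sites called higher, 7 of 10, numbered 2 under library totals, 4 under reads in regions, 3 under loess curves, 0 by title (2 unadjusted), 1 with knockdown replicate 2 alone and 4 to 7 on leaving out 1 library; 1 was called lower under each of the 3 scalings. The median log2 fold change of the regions was -0.25 under library totals, -0.10 under reads in regions and -0.11 with knockdown replicate 2 alone. Among named regions (log2 fold changes), under library totals Cntfr at 41696888 was -0.18, Jak3 at 71676406 -0.055 and Tyk2 at 21091842 -0.24; under reads in regions the Cntfr region was -0.032 and the Tyk2 region -0.080. Under loess curves Cntfr at 41640152 was -0.0042, Cntfr at 41697445 0.019, Il6st at 112463843 -0.044, Jak3 at 71676406 -0.0075 and Tyk2 at 21091842 -0.28. By title Cntfr at 41697445 was 0.14, Lifr at 7118828 -0.079 and Tyk2 at 21091842 -0.12. With knockdown replicate 2 alone Cntfr at 41648121 was -0.55, Cntfr at 41697445 0.22 and Tyk2 at 21091842 -0.12. On leaving out 1 library Cntfr at 41696888 ran from -0.041 to 0.27, Cntfr at 41697445 from -0.17 to 0.099 and Tyk2 at 21091842 from -0.048 to 0.15. Of the gene sums, under library totals Il6st was -0.12, Lifr 0.24, Jak2 -0.019 and Jak3 -0.12; under loess curves Il6st was -0.0053 and Jak3 -0.031; in DESeq2 Lifr was 0.37 and not called. By title Il6st was -0.029, Il6ra 0.26, Lifr -0.052, Il11ra1 0.0026, Jak1 -0.23, Jak2 -0.0018 and Tyk2 -0.24. With knockdown replicate 2 alone Il6ra was 0.31, Lifr 0.088 and Osmr -0.63. In the 5000 bp window Il6st was -0.0046 and Osmr 0.50. With the scaling of the regions Cntfr was 0.084, Il11ra1 0.046, Jak1 -0.13, Jak2 0.25 and Tyk2 -0.099. On leaving out 1 library Il6st ran from -0.019 to 0.030, Lifr from 0.16 to 0.48, Osmr from -0.48 to -0.066 and Jak3 from -0.035 to 0.061. The cause of these differences was not tested. With knockdown replicate 2 alone the spread comes from the controls, and that library is assumed to vary like them. No paired analysis was possible because the groups share no replicate number in the labels and nothing there ties adjacent numbers to each other; titles number the controls 1, 3 and 5 and the knockdown libraries 2, 4 and 6. Depth limits regions near 1 CPM most, and a change not called there was not shown to be absent.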
